A study of Mus musculus with 9 samples.

Results

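CpG methylation was examined at Bcl6, Bcl11a, Mef2c and Foxo1, a group of transcription factor genes known as regulators of germinal center and mature B cells. The members are the CpGs that the deposited table assigns to these genes by the nearest start site and that were covered by 10 or more reads in every one of the 9 libraries. These were 212 of the 474 CpGs listed for the genes, and 212 of the 356320 CpGs tested in the whole series. Foxo1 held 93 tested CpGs, Bcl11a 50, Bcl6 38 and Mef2c 31. The other 262 listed CpGs did not reach the read minimum in every library. The genes were chosen by name, and assignment to the nearest start site does not show that a distant CpG acts on that gene.

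The assay was reduced representation bisulfite sequencing. It reads DNA fragments that begin and end at MspI sites (CCGG), and after bisulfite treatment a cytosine that carries no methyl group appears as thymine. A CpG's level is the percentage of its reads that were methylated. Each group had 3 libraries, made from sorted spleen cells of 10-week-old C57Bl/6J female mice. Plasma cells, the antibody-secreting end of the lineage, were sorted as CD138+ with low B220 on day 3 after lipopolysaccharide (LPS). Plasmablasts, their dividing precursors, were CD138+ with intermediate B220 from the same day 3 condition. Naive B cells, taken from mice without LPS, were B220+ CD43-. The comparisons ask how methylation at these genes differed in each LPS-induced group from naive B cells, and between plasma cells and plasmablasts.

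BCL6 is a zinc-finger repressor that drives the germinal center reaction and represses Prdm1, the gene of the plasma cell regulator BLIMP1. FOXO1 is a forkhead factor held out of the nucleus by PI3K and AKT signalling, and it is needed for the dark zone of the germinal center. MEF2C is a MADS-box factor activated through p38 that promotes B cell proliferation after receptor signalling, and BCL11A is a zinc-finger repressor required early in B lymphopoiesis and known for silencing fetal globin genes. CpG islands at active start sites are usually unmethylated, while CpGs in gene bodies and between genes are usually methylated.

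The start-site window with the most CpGs is shown for each gene, to set the CpG content of the starts beside the unmethylated CpGs described below. The sequences come from RefSeq (build GRCm38.p6), run from 250 bases before to 50 after the start, and have each CG in capitals. All 4 genes matched, with 7 windows in all. The Foxo1 window lies at chr3:52268087-52268386 on the plus strand, the Bcl6 window at chr16:23988803-23989102 on the minus strand, the Bcl11a window at chr11:24080445-24080744 on the plus strand and the Mef2c window at chr13:83523406-83523705 on the plus strand.
Foxo1: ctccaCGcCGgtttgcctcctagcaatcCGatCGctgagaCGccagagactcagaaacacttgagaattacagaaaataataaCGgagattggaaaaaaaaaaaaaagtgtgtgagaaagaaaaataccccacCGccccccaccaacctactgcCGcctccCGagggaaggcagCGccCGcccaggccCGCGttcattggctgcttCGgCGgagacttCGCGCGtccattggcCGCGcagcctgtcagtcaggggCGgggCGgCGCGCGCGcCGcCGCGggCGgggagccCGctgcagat
Bcl6: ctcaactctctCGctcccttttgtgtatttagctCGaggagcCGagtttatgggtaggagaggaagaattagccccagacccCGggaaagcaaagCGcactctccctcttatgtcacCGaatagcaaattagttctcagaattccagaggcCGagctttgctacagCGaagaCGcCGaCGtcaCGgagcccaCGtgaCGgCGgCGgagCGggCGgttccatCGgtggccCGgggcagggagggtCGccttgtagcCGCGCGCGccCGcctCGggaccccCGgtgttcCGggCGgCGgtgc
Bcl11a: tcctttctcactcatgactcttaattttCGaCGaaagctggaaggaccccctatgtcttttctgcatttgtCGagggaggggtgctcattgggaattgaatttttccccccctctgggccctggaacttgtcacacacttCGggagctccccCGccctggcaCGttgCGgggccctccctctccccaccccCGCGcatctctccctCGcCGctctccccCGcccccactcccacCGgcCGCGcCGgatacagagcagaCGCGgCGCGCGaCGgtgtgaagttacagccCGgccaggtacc
Mef2c: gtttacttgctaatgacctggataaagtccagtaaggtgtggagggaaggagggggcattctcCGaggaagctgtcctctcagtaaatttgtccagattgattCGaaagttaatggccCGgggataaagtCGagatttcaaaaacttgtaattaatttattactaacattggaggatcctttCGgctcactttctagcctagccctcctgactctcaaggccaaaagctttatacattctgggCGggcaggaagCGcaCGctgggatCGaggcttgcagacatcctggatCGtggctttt

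The Foxo1 and Bcl6 windows each hold 31 CpGs, a number reached by 10.6% of all 32851 RefSeq windows of this length. The Bcl11a window holds 23 CpGs, a number reached by 21.5% of the windows, and the Mef2c window 10, reached by 43.5%. The other Bcl6 window holds 14 CpGs and the other 2 Mef2c windows 1 and 4. CCGG, the MspI site, which reads the same on both strands and itself contains a CG, occurs 4 times in the Bcl6 window, 3 times in the Bcl11a window and 1 time each in the Foxo1 and Mef2c windows. At least 1 such site occurs in 52.8% of all windows. The methylation files use build mm9, so their coordinates were not matched to these windows. By the deposited distances, no tested CpG of the 4 genes lay this close to a start site.

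Total reads over CpGs ran from 16037172 to 29948088 per library, and the median coverage of the member CpGs was 25 to 41.5 reads. At the 78187 CpGs of the series with a mean level under 5%, libraries differed within groups. Their level was 1.07% to 1.16% in plasma cells, 2.08% to 6.11% in plasmablasts and 0.749% to 3.13% in naive B cells, with plasmablast 2 the highest library. At 5 mitochondrial CpGs it was 0.895% to 1.03% in plasma cells, 2.78% to 7.13% in plasmablasts and 0.338% to 3.94% in naive B cells. Plasmablast 2 was again the highest library. The part of these library differences in the low levels given below was not tested. Of the B cell markers checked within 1000 bp of their start site, 2 of 6 could be measured, with levels of 1.49% to 2.5% in plasma cells, 2.06% to 7.64% in plasmablasts and 0.662% to 8.16% in naive B cells. T cell markers, 2 of 7 measured, stood at 12.6% to 15.2% in plasma cells, 14.8% to 22.5% in plasmablasts and 12.6% to 20.8% in naive B cells. Plasma cell markers, 2 of 5 measured, stood at 1.05% to 1.20% in plasma cells, 1.71% to 7.80% in plasmablasts and 0.472% to 3.14% in naive B cells. NK cell markers, 1 of 4 measured, stood at 2.05% to 2.86% in plasma cells, 3.57% to 5.84% in plasmablasts and 2.13% to 3.86% in naive B cells, and none of 5 myeloid markers was measured. Naive B cells overlapped plasma cells in every measured list, and the part of other cells in the results was not tested.

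Across the 4 genes the tested CpGs were either almost fully methylated or almost unmethylated in naive B cells. In naive B cells 74 CpGs stood at 80% or more, 126 at 10% or less and 12 between. The methylated CpGs averaged 76.5% ± 2.12 in plasma cells, 83.1% ± 0.72 in plasmablasts and 96.4% ± 1.12 in naive B cells (SD, n = 3 libraries each). No library of one group overlapped another group. The same stratum of the whole series, 204656 CpGs, averaged 77.9% ± 2.39 in plasma cells, 83.0% ± 0.50 in plasmablasts and 95.4% ± 0.84 in naive B cells, so the lower mean level of the methylated CpGs was shared with the tested genome.

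All 74 methylated CpGs had a lower pooled level in plasma cells than in naive B cells, with a median difference of -15.6 points and a range of -82.2 to -1.53. These CpGs were selected by their high level in the same naive B cell libraries, which leaves little room for a rise. The shared direction is therefore not read as a result about these genes. In plasmablasts 73 of the 74 were lower than in naive B cells, with a median difference of -9.32 points. By gene, the median differences of plasma cells from naive B cells were -32.2 points over the 5 methylated CpGs of Bcl11a, -20.3 over the 14 of Bcl6, -17.9 over the 15 of Mef2c and -12.1 over the 40 of Foxo1. Foxo1 therefore had the smallest median among the 4 genes, although it held the single CpGs with the largest falls.

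A CpG was called lower or higher when its adjusted p was under 0.01 in a quasi-binomial model over all 356320 CpGs and its pooled level differed by at least 20 points. Plasma cells were lower than naive B cells at 33 of the 212 member CpGs, or 15.6%, against 22.7% of all tested CpGs. Plasmablasts were lower than naive B cells at 15 members, or 7.08%, against 10.6% of all tested CpGs. Of those 15, 14 were also lower in plasma cells. No member CpG was higher in either group, against 0.0449% of all tested CpGs for plasma cells and 0.0682% for plasmablasts. Among the 74 methylated CpGs, 26 were lower in plasma cells and 11 in plasmablasts, where 33.3% and 16.3% of all such CpGs were lower. Over all members the counts lay below the background share in both comparisons, and among the methylated CpGs the plasma cell count lay slightly above it. Nothing particular to the 4 genes is read from these counts.

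At the edge of the call, the smallest called fall in plasma cells was -20.02 points and the largest fall not called was -18.9 points among CpGs with an adjusted p under 0.01 in the quasi-binomial model. In plasmablasts these values were -20.5 and -19.6 points. The adjusted p alone was passed by a further 21 member CpGs for plasma cells and 14 for plasmablasts. The 33 CpGs lower in plasma cells were 10 intronic and 4 intergenic CpGs of Foxo1, 1 intronic and 8 intergenic CpGs of Bcl6, 7 intergenic CpGs of Mef2c, and 1 intronic and 2 intergenic CpGs of Bcl11a. None lay in a promoter or exon class.

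**Figure D1:**
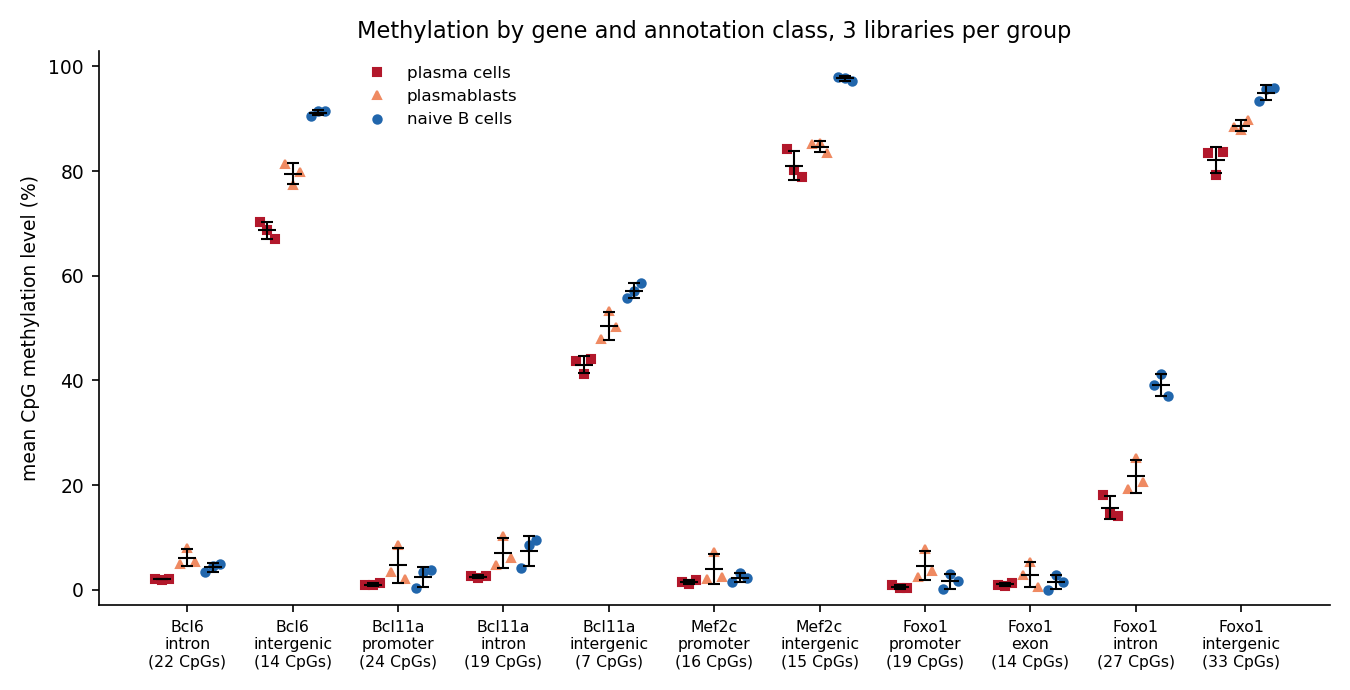
Mean CpG level in percent (y axis, 0 to 100) of the 11 gene-by-class units of Foxo1, Bcl6, Bcl11a and Mef2c, with plasma cells left, plasmablasts in the middle and naive B cells right in each unit. Points are the 3 libraries of each group and bars the mean ± SD; the promoter and exon units stay under 10% in all libraries, and the intergenic units are lowest in plasma cells.

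CpGs near the start sites were nearly unmethylated in all groups. The 19 promoter CpGs of Foxo1, at -977 to -350 bp, averaged 0.528% ± 0.37 in plasma cells, 4.6% ± 2.84 in plasmablasts and 1.59% ± 1.45 in naive B cells. The 14 CpGs in the first part of the gene that the table classes as exon, at +588 to +829 bp, averaged 1.00% ± 0.30, 2.87% ± 2.38 and 1.46% ± 1.42 in plasma cells, plasmablasts and naive B cells. The 24 CpGs of Bcl11a classed as promoter lay at -1387 to +868 bp by the deposited distances, so that some lie beyond the 500 bp after a start site that the class allows, and which transcript the class used was not settled. They averaged 0.984% ± 0.20 in plasma cells, 4.64% ± 3.42 in plasmablasts and 2.47% ± 1.92 in naive B cells.

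The 16 promoter CpGs of Mef2c averaged 1.51% ± 0.38 in plasma cells, 3.91% ± 2.88 in plasmablasts and 2.30% ± 0.91 in naive B cells. The cluster of Bcl6 CpGs nearest the start site, 6 CpGs at +677 to +908 bp intronic by the table's class, averaged 0.414% ± 0.38 in plasma cells, 5.49% ± 4.01 in plasmablasts and 1.55% ± 1.34 in naive B cells. None of these units changed in any comparison by limma. Of the 11 gene-by-class units, 5 were lower in plasma cells and 3 in plasmablasts, where 62.1% and 41.3% of all 29462 units were lower, and these are the intergenic and intronic units described below. The largest difference among the 4 promoter and exon units and the Bcl6 cluster was under 6 points. In each of the 5 units plasmablast 2 was the highest library, as it was over the low-level CpGs of the series, where it stood at 6.11%.

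Some single CpGs gave no methylated read in naive B cells. The lowest were +891 bp in Bcl6 with 0 of 77 reads (a count of 0 that allows up to 3.90%), -16295 bp upstream of Bcl11a with 0 of 49 (up to 6.12%), -1184 bp of Mef2c with 0 of 81 (up to 3.70%) and -578 bp of Foxo1 with 0 of 95 (up to 3.16%). The Foxo1 CpG also had 0 of 119 methylated reads in plasma cells, which allows up to 2.52%. The Bcl11a CpG shows that an unmethylated stretch was also measured far from the start site.

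The largest changes of the 4 genes lay in the first 32141 bp after the Foxo1 start, in CpGs classed as intronic. At +4374 bp (mm9 chromosome 3, position 52076634) the level was 2.17%, 0% and 1.61% in plasma cells, 8.33%, 11.8% and 8.89% in plasmablasts, and 85.2%, 85.4% and 79.3% in naive B cells, with libraries given here and below in the order of their numbers. Naive B cells were thus far above both other groups in every library. The pooled level fell by 82.2 points in plasma cells (adjusted p 5.86e-36, quasi-binomial model) and by 73.9 points in plasmablasts (adjusted p 2.44e-21, quasi-binomial model), over 159, 115 and 97 reads in plasma cells, plasmablasts and naive B cells.

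The CpG at +4133 bp (position 52076393) had levels of 2.63%, 5.13% and 2.22% in plasma cells, 4.55%, 8.57% and 0% in plasmablasts, and 79.3%, 83.3% and 82.1% in naive B cells. Its level fell by 78.4 points in plasma cells and by 76.7 in plasmablasts, the largest fall of a member CpG in plasmablasts (adjusted p 7.34e-27 and 6.33e-22, quasi-binomial model). Next to it at +4172 bp the levels were 2.63%, 0% and 0% in plasma cells, 2.27%, 11.1% and 0% in plasmablasts, and 64.3%, 61.1% and 57.1% in naive B cells. The CpGs at +4133 and +4172 bp lie within one read length of each other, so their reads may be the same. Plasma cells and plasmablasts overlapped at both, and both groups were near 0.

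In a second group of CpGs near +30 kb, plasma cells were lowest with plasmablasts between at +30546 and +30803 bp. At +30546 bp levels were 12.5%, 17.6% and 0% in plasma cells, 20.8%, 53.8% and 30.0% in plasmablasts, and 84.2%, 96.2% and 87.1% in naive B cells. Its level fell by 81.9 points in plasma cells and by 57.6 in plasmablasts (adjusted p 1.54e-18 and 1.74e-07, quasi-binomial model). The 3 groups did not overlap here, but the difference of -24.3 points between plasma cells and plasmablasts did not pass (adjusted p 0.0640, quasi-binomial model).

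At +30803 bp the levels were 25%, 12% and 25.4% in plasma cells, 50.0%, 42.9% and 39.3% in plasmablasts, and 80%, 79.0% and 62.5% in naive B cells, again without overlap. The CpG between these, at +30787 bp, stood at 0%, 0% and 9.52% in plasma cells, 7.14%, 9.52% and 0% in plasmablasts, and 45.7%, 50.0% and 31.2% in naive B cells, the lowest naive B cell levels of this stretch. Plasma cells and plasmablasts overlapped at +30787 bp. The CpGs at +30787 and +30803 bp lie within a read length of each other, so their reads may be the same. Over the intronic CpGs from +4 kb on, 9 library values were 0, and the read counts behind them allow levels of up to 5.88% to 14.3%.

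Further in, 4 CpGs between +31615 and +32141 bp were also lower in plasma cells. At +31872 bp the levels were 39.1%, 15.4% and 24.1% in plasma cells, 40%, 29.7% and 43.8% in plasmablasts, and 85%, 92.0% and 82.6% in naive B cells. It fell by 59.1 points in plasma cells (adjusted p 5.57e-09, quasi-binomial model), and plasma cells and plasmablasts overlapped. The CpG at +31615 bp kept more methylation than its neighbours, with 65.4%, 58.8% and 54.2% in plasma cells, 66.7%, 81.0% and 68.8% in plasmablasts, and 71.4%, 87.5% and 95.5% in naive B cells. It was lower in plasma cells (-25.4 points, adjusted p 0.00803 in the quasi-binomial model), while plasmablasts overlapped naive B cells and were not called.

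**Figure D2:**
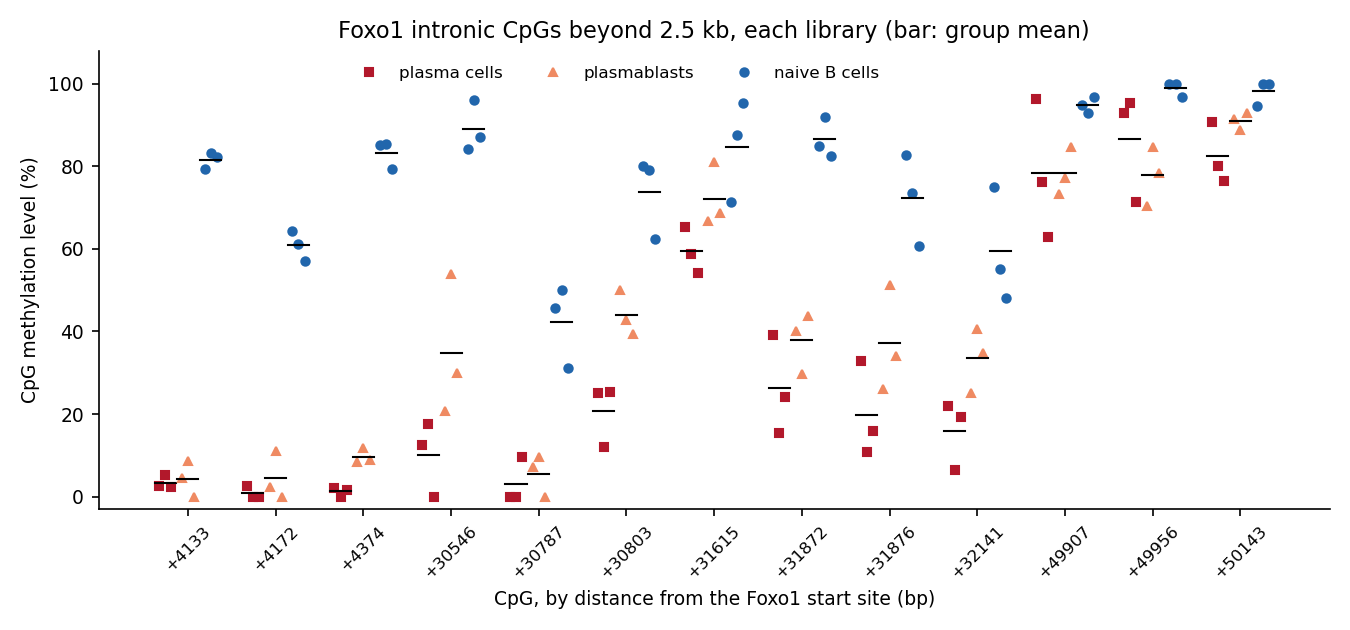
Methylation level in percent (y axis) of the 13 intronic Foxo1 CpGs more than 2500 bp from the start site (x axis, distance in bp), with each library as a point and the group mean as a bar, plasma cells left, plasmablasts in the middle and naive B cells right. The 3 CpGs near +4 kb are near 0 in plasma cells and plasmablasts, the CpGs near +30 kb have their lowest group means in plasma cells, and the 3 near +50 kb stay above 60% in all libraries.

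Over the 10 intronic CpGs from +4133 to +32141 bp, a range drawn after their values were seen, the mean level was 20.4%, 12.6% and 15.2% in plasma cells, 25.1%, 34.0% and 26% in plasmablasts, and 75.3%, 76.3% and 68.6% in naive B cells. The next intronic CpGs, 3 at +49907 to +50143 bp, averaged 93.3%, 83.8% and 70.2% in plasma cells, 78.4%, 83.6% and 85.3% in plasmablasts, and 96.5%, 97.6% and 97.9% in naive B cells. Their cluster mean was not called in any comparison by limma, and plasma cells and plasmablasts overlapped. One of the 3, at +49956 bp, was the only member CpG called lower in plasmablasts and not in plasma cells, with differences of -21.1 and -15.6 points from naive B cells. The intron as a whole was therefore not uniform. With gaps of up to 300 bp inside a cluster, a setting chosen after the data were seen, 5 member clusters were lower in plasma cells and 4 in plasmablasts, against 21.7% and 6.89% of all such clusters, and 3 of them were made of these Foxo1 CpGs. The counts are not given as shares of the member clusters, and nothing particular to the 4 genes is read from them.

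The 27 intronic CpGs of Foxo1, which include 14 unmethylated ones within 2500 bp of the start site, averaged 15.6% ± 2.20 in plasma cells, 21.7% ± 3.13 in plasmablasts and 39.1% ± 2.06 in naive B cells. Their mean fell by 23.5 points in plasma cells (SE 2.07, adjusted p 6.75e-06, limma) and by 17.4 points in plasmablasts (SE 2.07, adjusted p 0.000143, limma). Plasma cells and plasmablasts did not differ past the threshold (-6.06 points, adjusted p 0.0612, limma), and no library of either reached a naive B cell library.

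Falls of at least 50 points were rare in the series, at 1.26% of all tested CpGs in plasma cells and 0.35% in plasmablasts. Of the 8 member CpGs with such a fall in plasma cells, 7 were these Foxo1 intronic CpGs and 1 was a Bcl11a intronic CpG. All 5 member CpGs with such a fall in plasmablasts were in the Foxo1 intron. Of the 7 Foxo1 CpGs, +4133 and +4172 bp lie within a read length of each other, as do +31872 and +31876 bp. Such pairs may share reads, so the 7 may not all be separate observations. Among intronic CpGs whose naive B cell level was at least 40%, 2.3% of the series fell by at least 50 points in plasma cells and 0.701% in plasmablasts. In the order of falls over all 356320 CpGs, +4374 bp was at place 227 in plasma cells and 161 in plasmablasts, and +4133 bp at place 377 in plasma cells and 105 in plasmablasts.

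**Figure D3:**
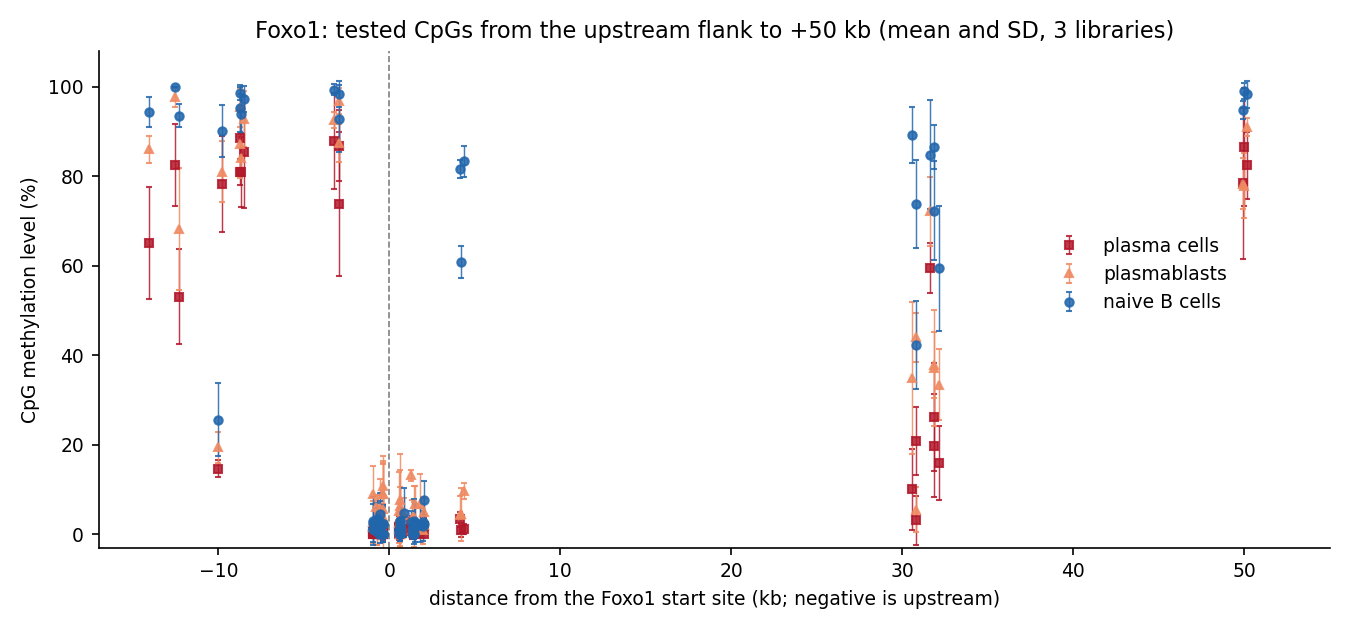
Mean level in percent (y axis) of each tested Foxo1 CpG between -15 kb and +50 kb of the start site (x axis, distance in kb), for plasma cells, plasmablasts and naive B cells. CpGs around the start site are near 0 in all 3 groups, and most of the intronic CpGs from +4 to +32 kb have plasma cell and plasmablast means far below naive B cells.

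Outside the gene body, the 33 intergenic CpGs of Foxo1 averaged 82.1% ± 2.52 in plasma cells, 88.7% ± 1.02 in plasmablasts and 95.0% ± 1.41 in naive B cells. Plasma cells fell by 12.9 points (SE 1.76, adjusted p 7.06e-05, limma), while the difference of -6.32 points in plasmablasts missed the threshold (adjusted p 0.0108, limma) and passed without plasma cell 2 (adjusted p 0.00779, limma). Upstream, the 12 CpGs averaged 73.1% ± 3.39 in plasma cells, 82.4% ± 2.34 in plasmablasts and 89.9% ± 2.29 in naive B cells. Downstream, the 21 CpGs averaged 87.2% ± 3.48 in plasma cells, 92.3% ± 0.46 in plasmablasts and 97.9% ± 0.90 in naive B cells.

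The upstream CpG with the largest called fall, at -12291 bp, stood at 65.1%, 45.5% and 48.7% in plasma cells, 66.7%, 55.3% and 82.5% in plasmablasts, and 92.7%, 91.4% and 96.5% in naive B cells. The Foxo1 CpG at -12545 bp stood at 92.3%, 81.2% and 73.9% in plasma cells and 95.8%, 97.1% and 100% in plasmablasts, against 117 of 117 reads methylated in naive B cells. Its difference of -16.9 points in plasma cells was under the 20 points required, and without plasma cell 1 it was -23.1 points and called (adjusted p 2.43e-05, quasi-binomial model). The methylated Foxo1 CpG that changed least in plasma cells, at +117527 bp, differed by -3.85 points (adjusted p 0.246, quasi-binomial model), and its cluster of 6 CpGs averaged 89.4% ± 3.66 in plasma cells, 93.4% ± 0.29 in plasmablasts and 97.2% ± 1.67 in naive B cells.

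At Bcl6, 8 of the 9 CpGs called lower in plasma cells than in naive B cells were intergenic and upstream of the gene. Its 14 intergenic CpGs, at -93676 to -5276 bp, had mean levels of 70.3%, 68.8% and 67.1% in plasma cells, 81.3%, 77.4% and 79.8% in plasmablasts, and 90.6%, 91.4% and 91.5% in naive B cells. The groups did not overlap. The mean fell by 22.4 points in plasma cells (SE 1.67, adjusted p 3.2e-06, limma) and by 11.7 points in plasmablasts (SE 1.67, adjusted p 0.000299, limma). Between plasma cells and plasmablasts it fell by 10.8 points (SE 1.67, adjusted p 0.00716, limma), the only one of the 11 units called there, where 1.48% of all units were lower. That call was lost in 12 alternative settings, 8 of which left out 1 library (all but plasma cell 1, adjusted p 0.0135 to 0.0272, limma).

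The Bcl6 CpG with the largest fall, at -83663 bp (mm9 chromosome 16, position 24072362), stood at 57.9%, 69.2% and 60.0% in plasma cells, 66.7%, 78.4% and 77.3% in plasmablasts, and 95.2%, 97.8% and 97.4% in naive B cells. It fell by 34.4 points in plasma cells (adjusted p 4.59e-07) and fell by 22.1 points in plasmablasts (adjusted p 0.000411) in the quasi-binomial model. Plasma cells and plasmablasts overlapped at this CpG. Its call in plasmablasts was lost without plasmablast 1 (-19.1 points, under the 20 required) and with limma (adjusted p 0.0111). Its call in plasma cells was lost with a term for the library set described below (adjusted p 0.0172, quasi-binomial model). At -67008 bp the levels were 73.3%, 88.2% and 69.2% in plasma cells and 90.9%, 85.7% and 93.3% in plasmablasts, against 90 of 90 reads methylated in naive B cells.

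The distant Bcl6 CpGs differed among themselves. The methylated CpG with the smallest change in plasma cells, at -27100 bp, stood at 92.6%, 96.3% and 94.7% in plasma cells, 85.7%, 100% and 83.9% in plasmablasts, and 98.1%, 100% and 100% in naive B cells. A short distance further, at -27303 bp, the levels were 73.3%, 66.7% and 60.0% in plasma cells, 76.9%, 75.7% and 85.2% in plasmablasts, and 98.0%, 97.1% and 100% in naive B cells. The second of these was called lower in plasma cells by the quasi-binomial model (adjusted p 6.06e-08). The first was not called (adjusted p 0.118), although each of its plasma cell libraries lay below each naive B cell library.

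The Bcl6 CpGs nearest upstream were partly methylated already in naive B cells. At -5276 bp the levels were 24.5%, 8.33% and 19.3% in plasma cells, 47.8%, 24.5% and 34.3% in plasmablasts, and 47.6%, 40.9% and 48.3% in naive B cells. Plasma cells were lower (-27.1 points, adjusted p 6.9e-05, quasi-binomial model), and plasmablasts overlapped naive B cells. At -5481 bp plasma cells had 44.4%, 25% and 33.3%, plasmablasts 78.3%, 51.2% and 70.4%, and naive B cells 59.5%, 61.5% and 50.0%. Here plasma cells lay below both other groups, yet neither difference passed (-28.1 points against plasmablasts, adjusted p 0.0318, and -22.6 against naive B cells, adjusted p 0.0209, quasi-binomial model).

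Within the gene, the 22 intronic Bcl6 CpGs averaged 2.03% ± 0.09 in plasma cells, 6.10% ± 1.66 in plasmablasts and 4.31% ± 0.86 in naive B cells, with no call. The exception among them was +5455 bp, with 0%, 8% and 3.85% in plasma cells, 15.0%, 21.4% and 8.70% in plasmablasts, and 34.2%, 33.3% and 22.6% in naive B cells. The groups did not overlap, and its level fell by 26.6 points in plasma cells (adjusted p 8.67e-05, quasi-binomial model). This CpG was chosen for mention after its values were seen. Its cluster of 4 CpGs, at +5455 to +5481 bp, was not called in plasma cells (-4.69 points, adjusted p 0.0967, limma). The other CpGs there differed from naive B cells by 6.84, 5.63 and -4.71 points in plasma cells. The 2 exonic CpGs, at +22654 and +22648 bp in the 3' untranslated region by the deposited annotation, averaged 82.2% and 87.0% in plasma cells, 86.7% and 87.7% in plasmablasts and 98.0% and 98.6% in naive B cells, with no call. Between +7406 and +22648 bp no Bcl6 CpG reached the read minimum, so change in most of the gene body was not tested. Pooled reads of untested CpGs there varied. At +16295 bp they stood at 62.5% in plasma cells and 96.8% in naive B cells, and at +11012 bp at 100% in both.

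At Mef2c all methylated CpGs tested were intergenic and far upstream. The 15 CpGs, at -561223 to -70965 bp, had mean levels of 84.2%, 80.1% and 78.8% in plasma cells, 85.1%, 85.5% and 83.4% in plasmablasts, and 98.1%, 97.8% and 97.2% in naive B cells. The mean fell by 16.7 points in plasma cells (SE 1.75, adjusted p 1.5e-05, limma) and by 13.0 in plasmablasts (SE 1.75, adjusted p 0.000225, limma). Plasma cells and plasmablasts overlapped and did not differ past the threshold (-3.61 points, adjusted p 0.138, limma).

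The cluster of 3 CpGs at -71162 to -70965 bp (mm9 chromosome 13) had mean levels of 74.6%, 73.7% and 69.8% in plasma cells, 74.1%, 75.8% and 74.1% in plasmablasts, and 98.6%, 96.7% and 93.2% in naive B cells. It fell by 23.5 points in plasma cells (adjusted p 2.73e-05, limma) and by 21.5 in plasmablasts (adjusted p 0.000161, limma). Plasma cells and plasmablasts overlapped here (a difference of -1.98 points, adjusted p 0.508, limma). A cluster of 3 CpGs at -442008 to -441792 bp averaged 75.0% ± 5.73 in plasma cells, 82.5% ± 2.33 in plasmablasts and 98.3% ± 1.55 in naive B cells and was called lower in plasma cells (-23.2 points, adjusted p 0.000121, limma).

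These 2 clusters were the only member clusters called lower in plasma cells, where 17% of all clusters were lower, and the first was the only one called in plasmablasts, where 5.44% were lower. As these counts are not shares of the member clusters, nothing particular to the 4 genes is read from them. The most distant cluster, at -560916 to -560905 bp, averaged 93.7% ± 1.95 in plasma cells, 90.7% ± 3.55 in plasmablasts and 97.9% ± 0.53 in naive B cells and was not called. Further out, -561223 bp stood at 75.9%, 71.4% and 88.9% in plasma cells and 85.7%, 88.9% and 90.9% in plasmablasts, against 88 of 88 reads methylated in naive B cells. Its fall in plasma cells was called (-21.3 points, adjusted p 5.46e-05, quasi-binomial model), and the differences without plasma cell 1 (-18.8 points) and without plasma cell 2 (-19.1 points) were not, nor was it called with the library set term (adjusted p 0.0476, quasi-binomial model).

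Among the single Mef2c CpGs, the largest fall was at -71162 bp, with 60.5%, 57.1% and 60.7% in plasma cells, 58.6%, 63.4% and 63.3% in plasmablasts, and 100%, 96.3% and 84.2% in naive B cells. It fell by 35.4 points in plasma cells (adjusted p 1.8e-06) and by 33.4 in plasmablasts (adjusted p 7.36e-06) in the quasi-binomial model. The methylated CpG with the smallest change, at -560905 bp, stood at 100%, 91.7% and 93.8% in plasma cells, 95.0%, 90.5% and 100% in plasmablasts, and 93.8%, 100% and 96.2% in naive B cells. All 3 groups overlapped there.

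Bcl11a had few methylated CpGs, and its largest fall was in an intron. At +39874 bp (mm9 chromosome 11, position 24020570) the level was 35.0%, 23.8% and 34.6% in plasma cells, 37.5%, 53.3% and 57.1% in plasmablasts, and 75.0%, 86.2% and 84.6% in naive B cells. The groups did not overlap. It fell by 50.9 points in plasma cells (adjusted p 2.36e-07) and by 33.7 in plasmablasts (adjusted p 0.000886) in the quasi-binomial model. The call in plasmablasts was lost without naive B cell 2 (adjusted p 0.0106), without plasmablast 1 (adjusted p 0.0198) and with limma (adjusted p 0.0111), and no other tested CpG of the 19 in this class was called.

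Upstream of Bcl11a, 7 intergenic CpGs averaged 43.0% ± 1.62 in plasma cells, 50.4% ± 2.71 in plasmablasts and 57.1% ± 1.46 in naive B cells, a mean over methylated and unmethylated CpGs. The mean fell by 14.1 points in plasma cells (SE 1.86, adjusted p 5.65e-05, limma), and the difference of -6.69 in plasmablasts missed the threshold (adjusted p 0.0106, limma). Without plasmablast 2 that difference was -8.11 points and was called (adjusted p 0.00487, limma). At -35274 bp the levels were 65.4%, 54.5% and 72.2% in plasma cells and 81.0%, 79.5% and 90.5% in plasmablasts, against 67 of 67 reads methylated in naive B cells. Among the methylated Bcl11a CpGs, with naive B cell means of at least 80%, the one with the smallest change in plasma cells, at -15348 bp, stood at 80%, 81.2% and 87.5% in plasma cells, 71.4%, 78.6% and 84.6% in plasmablasts, and 97.3%, 95.1% and 100% in naive B cells.

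**Figure D4:**
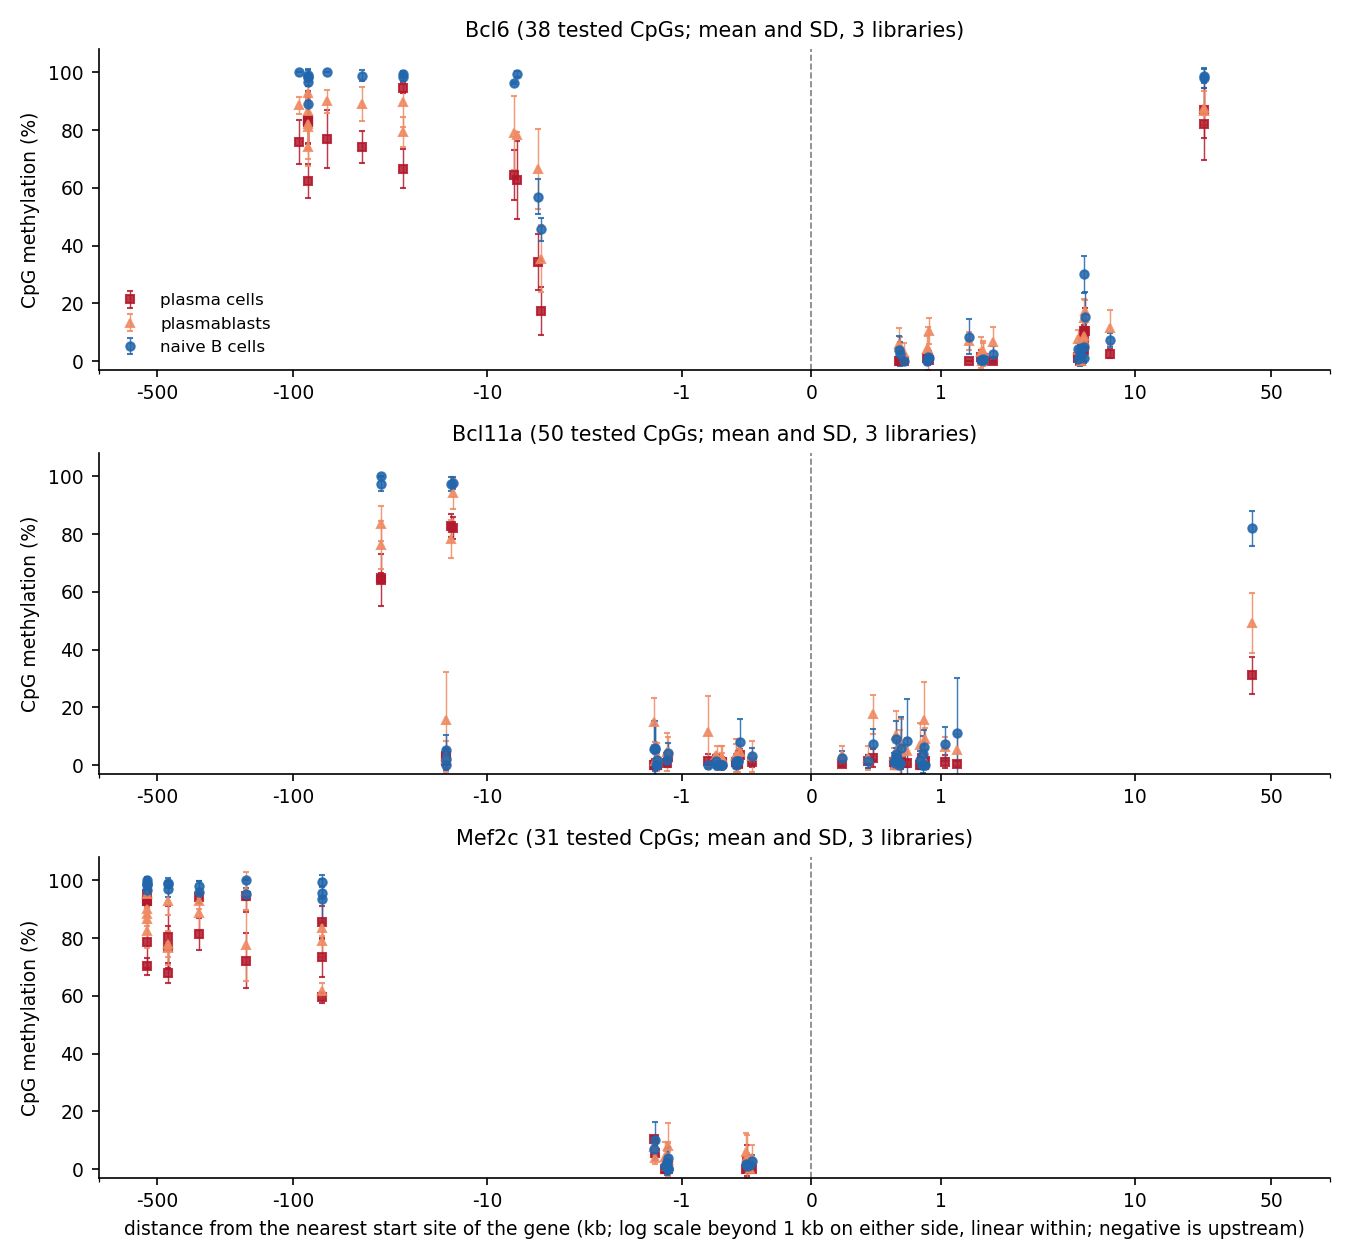
Mean level in percent (y axis) of each tested CpG of Bcl6, Bcl11a and Mef2c by distance from the start site in kb (x axis, symmetric log scale), for plasma cells, plasmablasts and naive B cells. CpGs close to the start sites have low means in all groups, and most distant upstream CpGs are at 80% or more in naive B cells and lower in plasma cells.

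Averaged over every tested CpG, the 4 loci kept 1 order in all 3 groups, with Mef2c highest, then Foxo1, Bcl6 and Bcl11a. These means depend on which CpGs were covered at each gene, since each mixes unmethylated and methylated CpGs. Mef2c averaged 40% ± 1.31 in plasma cells, 43.0% ± 1.84 in plasmablasts and 48.5% ± 0.49 in naive B cells. Foxo1 averaged 33.9% ± 1.34 in plasma cells, 39.1% ± 1.56 in plasmablasts and 45.6% ± 1.23 in naive B cells. Bcl6 averaged 31.0% ± 1.06 in plasma cells, 37.4% ± 0.40 in plasmablasts and 41.3% ± 0.83 in naive B cells. Bcl6 and Foxo1 overlapped in plasmablasts, where the highest Bcl6 library was at 37.9% and the lowest Foxo1 library also at 37.9%, and no other neighbours in the order overlapped within a group.

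Bcl11a stood at 7.52%, 7.04% and 7.77% in plasma cells, 10.1%, 15.4% and 10.3% in plasmablasts, and 9.5%, 12.8% and 13.7% in naive B cells, where plasmablasts and naive B cells overlapped. In plasma cells Foxo1 fell by 11.7 points (adjusted p 8.6e-06), Bcl6 by 10.3 (adjusted p 1.2e-05) and Mef2c by 8.47 (adjusted p 0.000137) in limma, while Bcl11a differed by -4.55 points and was not called. At 20 reads the Bcl6 difference was -4.97 points and not called, with pooled reads that of Mef2c was -17.3 points and not called (adjusted p 0.0117, quasi-binomial model), and with CpGs over 1000 bp from the start site that of Bcl11a was -10.4 points and called (adjusted p 0.000225, limma). These were 3 of 4 loci, where 79.9% of 14220 loci were lower and the median of all loci was -11.9 points. In plasmablasts 2 of the 4, Foxo1 (-6.47 points) and Mef2c (-5.48 points), were lower, where 56.2% of loci were lower and the median was -7.09 points. The Bcl6 difference there was -3.85 points and was not called (adjusted p 0.0260, limma). The Foxo1 call was lost with pooled reads (-9.03 points, adjusted p 0.0971, quasi-binomial model), without naive B cell 2 (adjusted p 0.0148) or plasmablast 1 (adjusted p 0.0119), and the Mef2c call without any one naive B cell library, plasmablast 1 or plasmablast 3 (adjusted p 0.0128 to 0.0294, limma).

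Between plasma cells and plasmablasts no member CpG was called by the quasi-binomial model, against 0.641% of all tested CpGs, and none by limma on CpG levels. No member cluster was called by limma, against 0.303% of all clusters. At an unadjusted p under 0.05, 65 of the 212 members passed in the quasi-binomial model, all 65 lower in plasma cells, or 30.7% against 18.8% of all tested CpGs. They were 27 CpGs of Foxo1, 16 each of Bcl6 and Bcl11a, and 6 of Mef2c. Of the 65, 39 had a mean level under 5% over the 9 libraries. Such a mean was held by 113 of the 212 members and by 78187 of the 356320 CpGs tested, so the 30.7% and 18.8% compare unlike mixes of levels. These 113 members stood at 0.752% to 0.790% in plasma cells and 2.12% to 6.51% in plasmablasts, and the part of that offset in the 65 was not tested.

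By locus, Bcl6 was called lower in plasma cells than in plasmablasts (-6.46 points, adjusted p 0.0075, limma), where 10.2% of loci were lower. Its call was lost with every library left out except plasma cell 1 (adjusted p 0.0105 to 0.0319, limma). With a term that sets naive B cell 1 and the plasma cell libraries apart from the others, which have higher levels at low CpGs, the difference was -5.04 points (adjusted p 0.831, limma). All plasma cell libraries fall on the opposite side of that term from all plasmablast libraries. Set and group can thus be separated in this comparison only through the naive B cell libraries, and the lost call cannot tell them apart. Foxo1 differed by -5.22 points (adjusted p 0.019, and 0.00986 and called without plasma cell 1) and Mef2c by -2.99 points (adjusted p 0.102) in limma without being called.

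The authors' deposited table of CpGs that differ in plasma cells from naive B cells lists 47 of the 474 CpGs of these genes. Of all CpGs in the series, 10.6% are listed there. Of the 47, 29 had the read minimum, and all 29 were among the 33 called here. The authors' deposited table for plasmablasts lists 9, where 1.93% of all CpGs in the series are listed. Of the 9, 8 had the read minimum, and all 8 were among the 15 called here. Foxo1 had 7 and Mef2c had 2 of these 9, and Bcl6 and Bcl11a had none. The authors' lists come from the same libraries with a false discovery rate of 0.01 and a change of at least 20 points. Their overlap with the calls here is therefore not independent support.

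Genes that act with the 4 factors showed the direction of the whole series. Of the BCL6 target genes tested, 10 of 11 loci were lower in plasma cells and 9 in plasmablasts, with a median of -13.6 points in plasma cells. Cd44, an adhesion receptor, averaged 21.2% ± 5.59 in plasma cells, 35.0% ± 1.30 in plasmablasts and 66.4% ± 5.20 in naive B cells. Cd80, a costimulatory ligand, averaged 36.8% in plasma cells, 44.4% in plasmablasts and 75.8% in naive B cells, and Myc, a growth regulator, differed least with 13.3%, 17.2% and 17.4% in plasma cells, plasmablasts and naive B cells.

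Among BCL6 partners, 4 of 5 loci were lower in plasma cells and 2 in plasmablasts. The corepressor subunit gene Mta3 averaged 77.6% in plasma cells, 80.7% in plasmablasts and 91.3% in naive B cells. The corepressor gene Ncor1 differed least, at 44.2% in plasma cells, 45.8% in plasmablasts and 45.7% in naive B cells. Of the relatives, Bcl11b averaged 64.1%, 68.8% and 77.0% in plasma cells, plasmablasts and naive B cells, and Bcl6b 50.5%, 55.4% and 54.6%, with 1 of the 2 called lower in plasma cells.

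Of the genes of FOXO factors, their upstream kinases and FOXO1 targets, 11 of 12 loci were lower in plasma cells and 6 in plasmablasts. The egress receptor gene S1pr1 averaged 39.0% in plasma cells, 46.2% in plasmablasts and 62.1% in naive B cells, and Klf2, a factor that activates it, averaged 21.8%, 29.2% and 39.4% in those groups. The homing receptor gene Ccr7 differed least, at 42.9% in plasma cells, 46.6% in plasmablasts and 46.5% in naive B cells. In the MEF2 family and its regulators 7 of 8 loci were lower in plasma cells and 4 in plasmablasts, with Mef2a at 54.8% in plasma cells, 61.8% in plasmablasts and 72.5% in naive B cells, the deacetylase gene Hdac5 at 54.7%, 64.7% and 71.5%, and the kinase gene Mapk7 at 8.48%, 12.7% and 11.8%.

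Of the germinal center program, 18 of 21 loci were lower in plasma cells and 14 in plasmablasts, with a median of -13.3 points in plasma cells. Pou2f2, which encodes the octamer factor OCT2, averaged 38.7% ± 0.90 in plasma cells, 53.2% ± 3.21 in plasmablasts and 92.7% ± 3.04 in naive B cells. Cxcr5, the receptor for follicular homing, averaged 22.3% in plasma cells, 30.4% in plasmablasts and 42.8% in naive B cells, and Gna13, a G protein subunit gene, stood at 0.723%, 3.03% and 2.40%. In none of these lists was a locus higher in plasma cells or plasmablasts, against 0.0141% and 0.0422% of all loci, and their shares are to be read against the 79.9% of all loci lower in plasma cells and 56.2% in plasmablasts.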

How the data were processed

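Reduced representation bisulfite sequencing gave methylation calls in 9 libraries, from 50 bp single-end reads per the labels' protocols. Per the submitters' processing notes, Bismark, Bowtie2 and mouse build mm9 were used, without versions. Per CpG and library, the authors deposited counts of methylated and unmethylated reads. The level they deposited beside them is a fraction that equals methylated over total reads. Per the file headers, classes count as promoter what lies up to 2500 bp before or 500 bp after a start site. Adaptors of 2 kinds were used per the labels' protocols, without saying which library received which.

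The 4 genes, the context lists, the thresholds and the alternatives were chosen with earlier results of these data known. CpGs with at least 10 reads in all 9 libraries were tested, 356320 of 911004 (39.1%). Each was fitted in R 4.3.3 with a quasi-binomial logistic model over the 3 groups, with 1 dispersion of 1.25 shared by all CpGs, so that a CpG's own spread between libraries does not enter its p. Calls needed a Benjamini-Hochberg adjusted p under 0.01 over all CpGs and 20 points of pooled level. Unweighted means of CpG levels, in percent, were tested with limma 3.58.1 over 14220 loci (at least 5 CpGs), 29462 gene-by-class units (at least 3 CpGs) and 41240 clusters (at least 3 CpGs, gaps up to 200 bp), with calls at 5 points for loci and units and 20 points for clusters. The code was tested on simulated data. Sequences were read from RefSeq windows (GRCm38.p6).

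CpGs were named by rule: per gene and contrast the called CpG with the largest fall, the lowest and the highest CpG in naive B cells, and the methylated CpG with the smallest change. Clusters named were the one nearest the start site, the called one with the largest fall and the methylated one with the smallest change. In each context list the 2 loci with the largest fall and the 1 with the smallest change in plasma cells were named. One gene that this rule names is not reported here. Other single CpGs were chosen after their values were seen. The labels do not say which animals gave which library, so limma p-values measure no more than the spread of these libraries, and that spread may be technical. Quasi-binomial p-values rest on read counts and the shared dispersion. They do not measure the spread of the libraries at a single CpG. Replicate libraries correlated at 0.956 to 0.986 and had identical counts at up to 1.29% of CpGs. Reads carry no molecular identifiers and PCR copies cannot be told apart, so limits from a count of 0 (3 counts over the reads) cover counting error only. Alternatives varied the read minimum, the model, the thresholds, a term for the library set (naive B cell 1 and plasma cells, which have the lower levels at low CpGs, against the rest), a replicate block and the libraries left out. Between plasma cells and plasmablasts the library set term is confounded with group except through the naive B cell libraries.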

Additional observations from a re-analysis of the deposited data

How the results depend on the processing

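No called result of the 4 genes changed direction under an alternative that gave it a value. The Bcl11a locus in plasmablasts, which was not called, was at -0.0374 points and at 2.84 points with 20 reads. The count of CpGs lower in plasma cells than in naive B cells, 33, became 13 at 20 reads and 53 at 10 points, and ran from 30 to 36 with 1 library left out. The count for plasmablasts, 15, became 9 at 20 reads, 27 at 10 points and 8 with limma, and ran from 15 to 17. Between plasma cells and plasmablasts the count of 0 became 1 at 10 points and ran from 0 to 1, with the 1 found without plasma cell 1.

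The 3 loci lower in plasma cells than in naive B cells became 2 at 20 reads (without Bcl6), 2 with pooled reads (without Mef2c), and 4 with CpGs over 1000 bp from the start site or at 5 reads (with Bcl11a), and stayed at 3 with each library left out. The 2 loci lower in plasmablasts became 1 with the library set term, 1 on the log2 scale and 0 with pooled reads, and ran from 0 to 2. The Bcl6 locus was called in addition with the background subtracted (-5.31 points, adjusted p 0.00229, limma). It was also called with CpGs over 1000 bp from the start site (-5.31 points, adjusted p 0.00605, limma). The 1 locus lower in plasma cells than in plasmablasts became 0 at 20 reads, 0 at 5 reads, 0 with the background subtracted, 0 with the library set term, 0 on the log2 scale and 0 with pooled reads, and ran from 0 to 2. Of class units, the 5 lower in plasma cells than in naive B cells stayed at 5 with each library left out. The 3 lower in plasmablasts became 5 with units of at least 5 CpGs and 5 at 5 reads, and ran from 3 to 4. The 1 lower in plasma cells than in plasmablasts became 0 at 20 reads, 0 at 5 reads and 0 with the library set term, and ran from 0 to 1. Of clusters, the 2 lower in plasma cells than in naive B cells became 0 at 20 reads, 0 with gaps up to 100 bp and 5 with gaps up to 300 bp, and ran from 2 to 3. The 1 lower in plasmablasts became 0 at 20 reads, 0 with gaps up to 100 bp and 4 with gaps up to 300 bp, and stayed at 1. The 300 bp gap was chosen after seeing the data, and the clusters it adds include 3 in the Foxo1 intron, described above by their CpGs. The cause of these changes was not tested, beyond the fewer or more CpGs that a read minimum or gap leaves.

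With the replicate block, the 33 and 15 CpGs became 31 and 15, the 2 loci lower in plasmablasts became 1, and the 1 locus and the 1 class unit lower in plasma cells than in plasmablasts each became 0. Same-numbered libraries did not deviate together (correlations of -0.0287 to 0.0302 over 9 pairs, with 3 of 9 libraries closest to their own number). Counting error in the reads could hide a shared animal, so this check cannot decide whether the numbers pair the libraries. Among named results, the Mef2c locus in plasmablasts lost its call in 9 alternatives (adjusted p 0.0123 to 0.161 in limma or the quasi-binomial model). Depth limited the CpGs: 262 of 474 listed were not tested.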

Other observations

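Some member CpGs without the read minimum, chosen after their values were seen, had lower levels in plasma cells and plasmablasts than in naive B cells. These values are from pooled reads of a group and have no test. Upstream of Bcl6, -4958 bp stood at 6.8% in plasma cells, 8.7% in plasmablasts and 56.2% in naive B cells, and -5227 bp at 3.6%, 18.2% and 32.4% in those groups. In the Foxo1 intron, +2159 bp stood at 1.5% in plasma cells, 8.3% in plasmablasts and 37.3% in naive B cells. Upstream of Bcl11a, -71249 bp stood at 33.3% in plasma cells, 78.6% in plasmablasts and 100% in naive B cells. At least 1 library at each of these CpGs had fewer than 10 reads, so the values are descriptions of thin coverage.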
